A study of Mus musculus with 20 samples.

Results

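A set of 9 genes that mark leukocytes, of 27827 gene names on a whole-genome mouse array, were followed in kidneys injured by ischemia and reperfusion. They were chosen by name: Ptprc for leukocytes in general, Csf1r, Cd68, Cd163, Mrc1 and Cx3cr1 for macrophages and monocytes, and Cd3e, Cd4 and Cd8a for T cells. Together the 9 genes were read by 19 of 41174 probes. RNA from whole kidneys of male C57BL/6 mice aged 8 to 12 weeks was hybridised to 20 one-colour Agilent arrays, in 5 groups of 4. For Control animals neither surgery nor drug is described. In the IRI group the vessels of both kidneys were clamped for 45 min and the kidneys were then reperfused for 6 h. IRI+Hemin animals received hemin, an inducer of heme oxygenase, by intraperitoneal injection at 25 mg/kg 24 h before the same surgery. IPC+IRI animals had a first operation with 15 min of preconditioning ischemia 7 days before it. That operation is part of every difference of this group from the others. Hemin animals received the drug and no surgery. No sham operation is described for the untreated group, so the operation itself may be part of every difference between an operated and an unoperated group. The comparisons asked what injury did to each marker and whether either pretreatment altered it.

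Ptprc encodes CD45, the surface phosphatase carried by nearly all leukocytes. Resident macrophages of the kidney form a network between the tubules. They depend on the receptor encoded by Csf1r, and many carry the fractalkine receptor encoded by Cx3cr1. Neutrophils and monocytes enter the organ in the first hours of reperfusion, and lymphocytes are a small population in a healthy kidney.

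The oligonucleotides behind the members were 60 bases long and lay at different distances from the 3′ end of their genes. The 5 sequences below belong to members whose readings differed between probes, or whose difference rested on that probe alone. Other probes of these genes, some of them brighter, are not printed. They are written 5′ to 3′ as on the array, with the mm9 position and strand of the array design. Whether a probe lies in a particular exon was not looked up here, since no annotation of that build was used.

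Ptprc A_52_P11901, chr1:140010285-140010344, minus strand: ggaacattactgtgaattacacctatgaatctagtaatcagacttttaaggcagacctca
Ptprc A_52_P239834, chr1:139962691-139962750, minus strand: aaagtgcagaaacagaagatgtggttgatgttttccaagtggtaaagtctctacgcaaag
Cx3cr1 A_51_P350853, chr9:119960610-119960669, minus strand: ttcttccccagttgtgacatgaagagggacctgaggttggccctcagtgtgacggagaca
Cd4 A_52_P383089, chr6:124817706-124817765, minus strand: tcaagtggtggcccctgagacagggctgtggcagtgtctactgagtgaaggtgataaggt
Cd8a A_52_P150547, chr6:71323885-71323944, plus strand: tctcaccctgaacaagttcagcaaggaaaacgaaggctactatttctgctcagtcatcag

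The first Ptprc oligonucleotide lay 50.2 kb upstream of the gene's 3′-most probe and the second 2.60 kb upstream. The first was above background on 1 of 20 arrays, in the IPC+IRI group. The Cx3cr1 sequence lay 1.59 kb upstream of the other Cx3cr1 probe, and the Cd8a sequence, which the array design assigns to transcript variant 2, lay 5.03 kb upstream of the 3′-most Cd8a probe. The Cd4 oligonucleotide was spotted 10 times on each array and was the only Cd4 probe ever above background.

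Levels are given as log2 of the processed signal of a gene, averaged over its probes, divided by the 75th percentile of all probes on the same array. A level of 0 therefore equals that percentile, and a difference of 1 is a 2-fold change. Levels of different genes are not comparable on this scale, since each probe binds with its own strength. A reading counts as above background where the scanner software marked at least 1 probe of the gene as well above it. Testing in a comparison required a gene to be above background on 3 or 4 arrays in one of the compared groups, and a gene was called if the adjusted p of limma's moderated test was below 0.05. The 75th percentile ranged from 146.7 to 357.9 scanner units over the arrays, and 56.8 to 67.3% of probes were above background. All 9 kidney markers examined, among them Umod and Slc34a1, were above background on all 20 arrays. The albumin gene Alb was also above background on all arrays, while the fat gene Adipoq was above background on 9. Each group occupied one slide, and slide cannot be told apart from group. Control and IRI arrays shared a scan day, as did IPC+IRI and Hemin arrays, and the IRI+Hemin arrays were scanned apart from both, which makes 3 days in all. The replicates are numbered without a statement that each was a separate mouse, so the spread may be partly technical.

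Ptprc, Csf1r, Cd68 and Cd3e were above background on all 20 arrays, Mrc1 and Cd4 on 19, Cd8a on 18, Cx3cr1 on 12 and Cd163 on 3. In IRI versus Control, 1 of 8 members tested was higher and 3 were lower. Over all genes tested in that comparison, 17.1% were called higher and 33.9% lower. The median difference of the members tested was -0.25 and that of all genes -0.17. The higher member was Cd68, and the lower ones were Cx3cr1, Cd4 and Cd8a. Ptprc, the general leukocyte marker, was not called in any comparison.

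**Figure D1:**
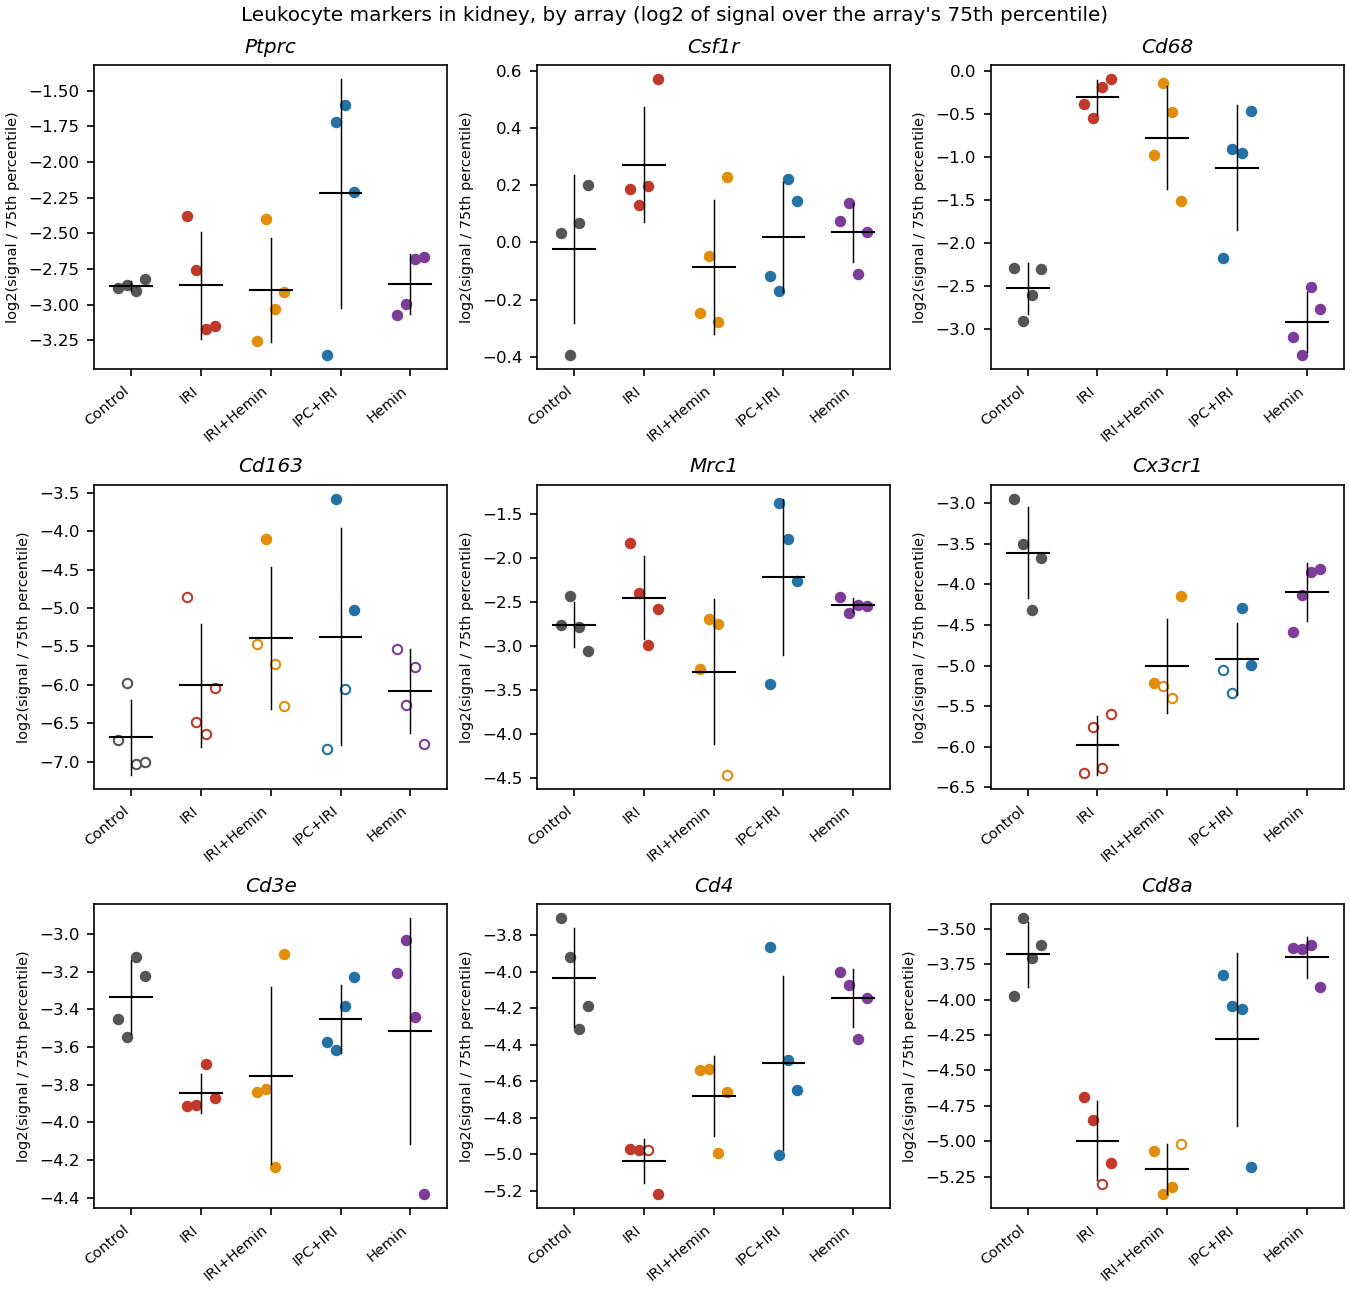
Level of each member on each array, as log2 of signal over the array's 75th percentile, by group. Points are arrays, hollow where the gene was not above background, and bars are group means with SD over 4 arrays. Cd68 was high in the 3 operated groups, and Cx3cr1 lay lowest in IRI, where all 4 points are hollow.

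Among the macrophage genes, Cd68 was the one called higher after injury. It encodes a glycoprotein of late endosomes and lysosomes that is abundant in phagocytes. Its level was -2.30, -2.91, -2.60 and -2.31 on the 4 Control arrays. After IRI it was -0.38, -0.55, -0.19 and -0.09. Every IRI array lay above every Control array. The IRI+Hemin arrays read -0.97, -0.14, -0.48 and -1.52. The IPC+IRI arrays read -2.17, -0.90, -0.95 and -0.47, and those of the Hemin group -3.10, -3.31, -2.51 and -2.77. Arrays of both pretreated and operated groups lay above every unoperated array and spread more widely than those of IRI, with IPC+IRI replicate 1 close to the Control arrays.

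Cd68 was 4.68-fold higher in IRI than in Control, a log2 difference of 2.23 ± 0.32 (SE; adjusted p = 1.77e-05, limma). The signal measured by the array in a whole kidney cannot separate more cells of a type from more RNA per cell. Cd68 was also 4.42-fold higher in IRI+Hemin than in Hemin (log2 difference 2.14 ± 0.32, adjusted p = 4.57e-05). Against Control, IPC+IRI was 2.65-fold higher (1.41 ± 0.32, adjusted p = 0.00108), and against Hemin, scanned on the same day, it was 3.48-fold higher (1.80 ± 0.32, adjusted p = 0.000313). Between the operated groups, Cd68 was 1.76-fold lower in IPC+IRI than in IRI (-0.82 ± 0.31, adjusted p = 0.0424), although the groups overlapped. That call was lost without IRI replicate 1, 3 or 4 or IPC+IRI replicate 1 or 3, and the difference ran from -1.04 to -0.47, the value without IPC+IRI replicate 1 (adjusted p = 0.173). The calls of Cd68 against unoperated groups held when any one array was left out. The difference of IRI+Hemin from IRI was -0.47, with a 95% interval from -1.14 to 0.19, and was not called (adjusted p = 0.234). Hemin without surgery differed from Control by -0.39 (interval -1.06 to 0.27, adjusted p = 0.351). Significance analysis of microarrays (SAM) called no member in any of the 3 comparisons of IPC+IRI, Cd68 included.

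Csf1r, the receptor of colony-stimulating factor 1 and interleukin 34, stayed within a narrow range. Its levels ran from -0.39 to 0.20 in Control, 0.13 to 0.57 in IRI, -0.28 to 0.23 in IRI+Hemin, -0.17 to 0.22 in IPC+IRI and -0.11 to 0.14 in Hemin. These ranges all overlapped, and the gene was not called in any comparison. The IRI mean was 0.30 above Control (interval -0.01 to 0.60, adjusted p = 0.102), and the IRI+Hemin mean was 0.36 below IRI (difference -0.36 ± 0.15, adjusted p = 0.0557). The latter was called without IRI+Hemin replicate 4, at -0.46.

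Mrc1, the mannose receptor CD206, and Cd163, the scavenger receptor for haptoglobin-hemoglobin complexes, mark mature tissue macrophages. Mrc1 read -2.76, -2.43, -2.78 and -3.06 in Control and -1.84, -2.40, -2.98 and -2.58 in IRI. In IPC+IRI it read -3.43, -1.38, -1.79 and -2.26, so that replicate 1 lay below the other arrays of its group. Without that array Mrc1 was called higher in IPC+IRI than in Control (0.95, adjusted p = 0.0281). It ranged from -4.46 to -2.69 in IRI+Hemin, where the lowest array was not above background, and from -2.63 to -2.44 in Hemin. With all arrays Mrc1 was called in none of the comparisons. Its difference in IRI+Hemin versus IRI was -0.84 (interval -1.66 to -0.03, adjusted p = 0.0860), and in IPC+IRI versus Control it was 0.54 (interval -0.27 to 1.36, adjusted p = 0.247). Cd163 was above background on 1 IRI+Hemin array, at -4.10, and on 2 IPC+IRI arrays, at -3.57 and -5.02. The other 17 arrays did not register it above background, and it was tested in no comparison.

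Cx3cr1, the receptor for fractalkine, moved opposite to Cd68 after injury. On the Control arrays it read -2.94, -3.50, -4.31 and -3.68. The IRI arrays gave -6.33, -5.75, -6.25 and -5.59, and none of the 4 was above background. The IRI readings therefore show only that the gene was not detected there. The lowest signal above background on an IRI array was as high as -4.47, on replicate 3, against -4.31 for Control replicate 3, so the separation of the groups beyond that floor rests on readings below background. The IRI+Hemin arrays read -5.22, -5.26, -5.40 and -4.15, with replicates 1 and 4 above background. The IPC+IRI arrays read -5.05, -5.33, -4.29 and -5.00, with replicates 3 and 4 above background. The Hemin arrays, all above background, read -4.59, -4.13, -3.85 and -3.81. The order of the means was Control, Hemin, IPC+IRI, IRI+Hemin and IRI, and of these neighbours only the readings of the last pair did not overlap, with IRI wholly below background.

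With each IRI array set at its lowest signal of any probe above background, Cx3cr1 was 2.13-fold lower in IRI than in Control. The fitted log2 difference was -2.37 ± 0.31 (adjusted p = 7.79e-06, limma). That floor is not a strict limit. On IPC+IRI replicate 3 the probe A_51_P350853 read -4.46 without being above background, against a floor of -4.87 on that array. In IPC+IRI Cx3cr1 was 2.47-fold lower than in Control (-1.31 ± 0.31, adjusted p = 0.00172) and 1.77-fold lower than in Hemin (-0.82 ± 0.31, adjusted p = 0.0472). In IRI+Hemin it was 1.88-fold lower than in Hemin (-0.91 ± 0.31, adjusted p = 0.0244). Only 2 of 4 arrays in each of IPC+IRI and IRI+Hemin were above background, so these folds take readings below it as measured. Readings of IPC+IRI and of IRI+Hemin all lay above those of IRI, but too few arrays were above background for a test, and no fold is given for either pair. Its calls against Control held without any one array. The call in IRI+Hemin versus Hemin was lost without IRI+Hemin replicate 1, 2 or 3 or Hemin replicate 3 or 4 (differences over all omissions -1.20 to -0.78), and that in IPC+IRI versus Hemin without any array but IPC+IRI replicate 3 or Hemin replicate 1 (-1.03 to -0.68). The interaction, which asks whether injury changed a gene less after hemin, is given no value for Cx3cr1, since it would take the IRI readings as measured. With the IRI readings set at the floor described above, the fall of Cx3cr1 from Control was 1.09 on the log2 scale. The fitted difference in IRI+Hemin versus Hemin was -0.91, which takes readings below background as measured. The floored and the fitted value are unlike measures, and no comparison of them is drawn.

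The probes of Cx3cr1 differed in how far they could be read. The 3′-most one, A_52_P99810, gave -3.03 ± 0.50 in Control (SD, n = 4), above background on all 4 arrays, and was above background on no IRI array, on 2 IRI+Hemin arrays and on 2 IPC+IRI arrays. The probe printed above, A_51_P350853, read -4.69 ± 0.94 in Control and -5.76 ± 0.61 in IRI and was not tested there.

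**Figure D2:**
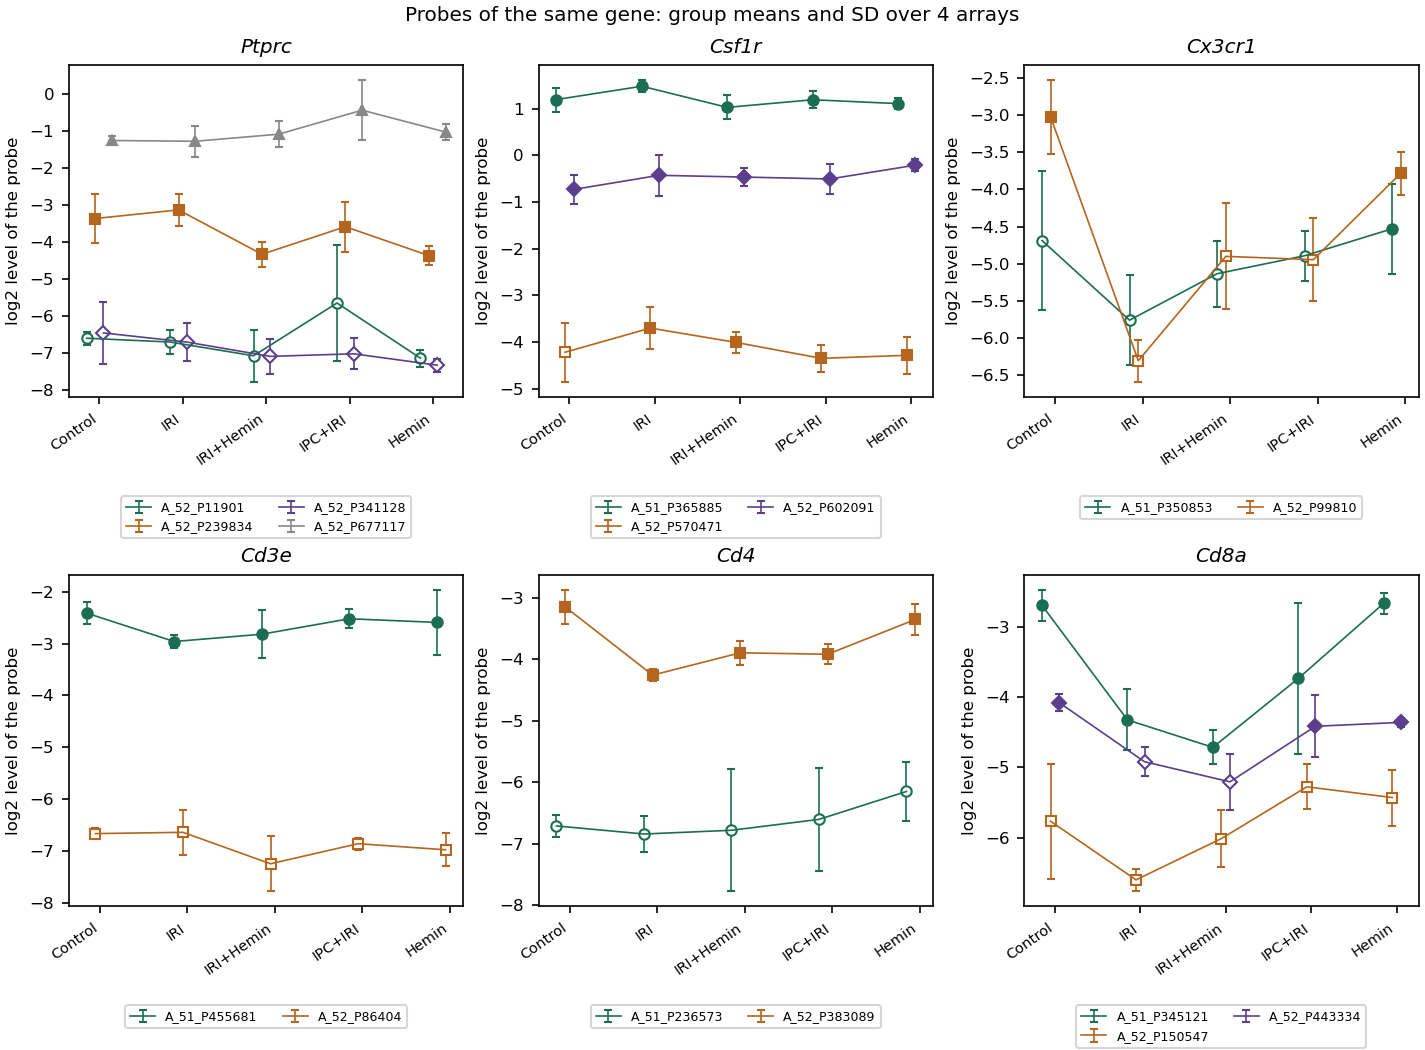
Group means with SD over 4 arrays for each probe of the 6 members with several probes, as log2 of signal over the array's 75th percentile. A hollow point marks a group in which the probe was above background on fewer than 3 arrays. The transcript variant 2 probe of Cd8a and one probe each of Cd3e and Cd4 are hollow in every group, and the probes of Ptprc followed different courses.

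Ptprc itself gave levels of -2.88, -2.86, -2.91 and -2.82 in Control, closer together than in any other group. The IRI arrays read -2.38, -2.76, -3.17 and -3.15 and straddled the Control arrays. Their difference was 0.01 (interval -0.60 to 0.61, adjusted p = 0.990, limma). The IPC+IRI arrays read -3.36, -1.72, -1.60 and -2.21, so 3 of them were the highest of all 20 and the remaining one was the lowest. The differences of IPC+IRI from IRI (0.64, interval 0.03 to 1.25, adjusted p = 0.0797) and from Control (0.65, interval 0.04 to 1.26, adjusted p = 0.0661) were not called. Without IPC+IRI replicate 1 they were 1.02 and 1.03 and were called (adjusted p = 0.00136 and 0.000691). IRI+Hemin ranged from -3.25 to -2.40 and Hemin from -3.08 to -2.67, both around the Control levels.

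The probes of Ptprc disagreed. The brightest, A_52_P677117, was present in 10 spots whose log2 SD on an array had a median of 0.064, and it was higher in IPC+IRI than in IRI by 0.84 (adjusted p = 0.0275, limma over probes) and than in Control by 0.82 (adjusted p = 0.0263). In the probe-level comparisons of IPC+IRI with IRI and with Control, 46.6% and 56.3% of probes were called. A_52_P239834, printed above, differed there by -0.45 (adjusted p = 0.267) and -0.22 (adjusted p = 0.591), neither called. It was lower in IRI+Hemin than in IRI by a difference of -1.20 (adjusted p = 0.00636), where 46.9% of probes were called. It was also lower in Hemin than in Control (-1.003, adjusted p = 0.0244, with 36.4% of probes called), a direction opposite to that of the gene's mean, 0.01. The remaining pair of Ptprc probes was mostly below background.

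Of the T cell genes, Cd3e encodes a chain of the receptor complex carried by all T cells, Cd4 the coreceptor of helper T cells, and Cd8a a chain of the coreceptor of cytotoxic T cells. In mice, Cd4 and Cd8a are also carried by some dendritic cells. Cd3e read -3.45, -3.55, -3.12 and -3.22 in Control and -3.91, -3.91, -3.69 and -3.87 in IRI. All IRI arrays lay below all Control arrays. The difference was -0.51 ± 0.24 (interval -1.02 to 0.0014) and was not called (adjusted p = 0.0891, limma). It was called under 4 of 23 alternatives, among them the methods' t-test, and adjusted p ran from 0.00989 to 0.896 over them. Levels ranged from -4.24 to -3.11 in IRI+Hemin, -3.62 to -3.23 in IPC+IRI and -4.38 to -3.03 in Hemin. IPC+IRI lay wholly above IRI, by 0.40 (interval -0.11 to 0.91, adjusted p = 0.195), which was not called. Without Hemin replicate 4, the lowest array of that group, Cd3e was called lower in IRI+Hemin than in Hemin (-0.52), against -0.24 with all arrays.

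Cd4 read -3.71, -3.92, -4.31 and -4.19 on the Control arrays and -4.97, -4.98, -4.98 and -5.22 on the IRI arrays, the third of which was not above background. The groups did not overlap, and the IRI arrays were close together. The IRI+Hemin arrays read -4.54, -4.53, -4.99 and -4.66, the IPC+IRI arrays -3.87, -5.00, -4.48 and -4.65, and the Hemin arrays -4.002, -4.07, -4.37 and -4.14. IPC+IRI replicate 1 is the highest of its group, and it rests on the brighter probe alone because the dim one had no usable spot there. Cd4 was 2.00-fold lower in IRI than in Control (-1.003 ± 0.19, adjusted p = 0.000303). It was lower in IRI+Hemin than in Hemin (-0.53 ± 0.19, adjusted p = 0.0306) and in IPC+IRI than in Control (-0.47 ± 0.19, adjusted p = 0.0451), and higher in IPC+IRI than in IRI (0.53 ± 0.19, adjusted p = 0.0298). Without IPC+IRI replicate 1 the last difference was 0.32 and was not called (adjusted p = 0.121), and its call was also lost without IRI replicate 4 or IPC+IRI replicate 3. By the brighter probe alone, which is read on every array, IPC+IRI differed from IRI by 0.34 and was not called (adjusted p = 0.0726), and from Control by -0.77 (adjusted p = 0.000341). Over all probes, 46.6% were called in the former comparison and 56.3% in the latter. The call against Hemin was lost without IRI+Hemin replicate 3 or Hemin replicate 1, 2 or 4 (differences over all omissions -0.61 to -0.43), and that of IPC+IRI against Control without Control replicate 1 or 2 or IPC+IRI replicate 2, 3 or 4 (-0.68 to -0.30). The call in IRI versus Control held without any one array.

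Cd8a read -3.98, -3.42, -3.70 and -3.62 in Control and -4.68, -4.85, -5.30 and -5.15 in IRI, again without overlap. The IRI+Hemin arrays were as low, at -5.07, -5.38, -5.32 and -5.02. The IPC+IRI arrays read -3.83, -4.04, -4.06 and -5.18, so 3 lay above all IRI arrays and replicate 4 among them, and the Hemin arrays read -3.64, -3.64, -3.61 and -3.91. Cd8a was 2.49-fold lower in IRI than in Control (-1.32 ± 0.22, adjusted p = 0.000110) and 2.82-fold lower in IRI+Hemin than in Hemin (-1.49 ± 0.23, adjusted p = 5.48e-05). It was 1.64-fold higher in IPC+IRI than in IRI (0.72 ± 0.22, adjusted p = 0.0151) and lower in IPC+IRI than in Control (-0.60 ± 0.22, adjusted p = 0.0303). Leaving out IPC+IRI replicate 1 ended the first of these (0.57, adjusted p = 0.0585), as did leaving out IRI replicate 3. The second was lost without Control replicate 2, 3 or 4 or IPC+IRI replicate 4 (differences over all omissions -0.75 to -0.30), whereas the calls in IRI versus Control and IRI+Hemin versus Hemin held without any one array. The difference of IRI from Control was -1.63 for the probe A_51_P345121, above background on 3 IRI arrays. A_52_P443334 was above background on all 4 Control arrays and on no IRI array. The transcript variant 2 probe printed above was above background on no Control or IRI array and gives no measure of that difference.

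**Figure D3:**
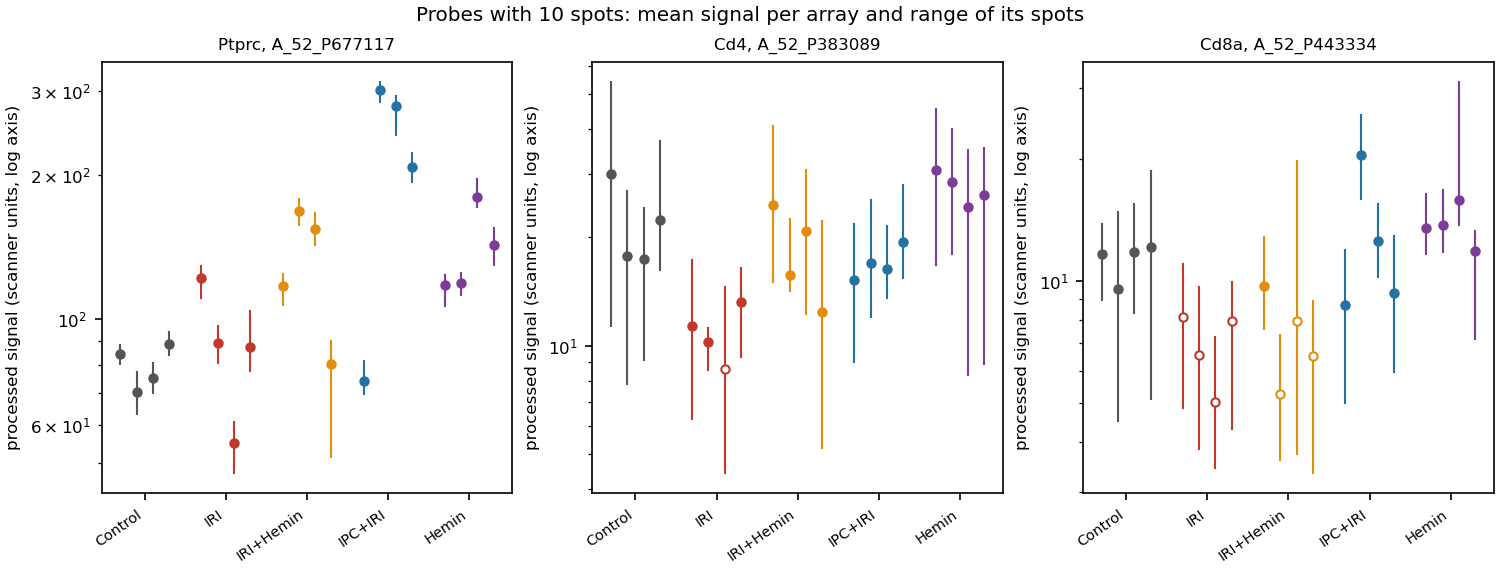
Mean processed signal of the 3 probes spotted 10 times, per array and before scaling between arrays, on a log axis in scanner units. Lines run from the lowest to the highest of all spots, including those removed as outliers, and hollow points were not above background. The spots of Ptprc lie close together, whereas the spots of Cd4 and Cd8a spread over ranges wider than the gap between groups.

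Cd4, Cd8a and Cx3cr1 were read near the lower end of the scanner's range. The Cd4 probe gave 17.4 to 30.0 scanner units on Control arrays and 8.64 to 13.3 on IRI arrays. Those of its 10 spots that were kept on an array had a log2 SD with a median of 0.39 and a highest value of 0.80. For the replicated Cd8a probe the median was 0.32. With normexp background correction and an offset of 50 units, which exceeds these signals, IRI versus Control differences were -0.0086 for Cx3cr1, 0.085 for Cd4 and 0.022 for Cd8a, none of them called, and no call of these 3 genes remained in any comparison. Cd68 was called under that correction in each comparison where it had been called before, with 1.18 in IRI versus Control (adjusted p = 5.49e-05).

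**Figure D4:**
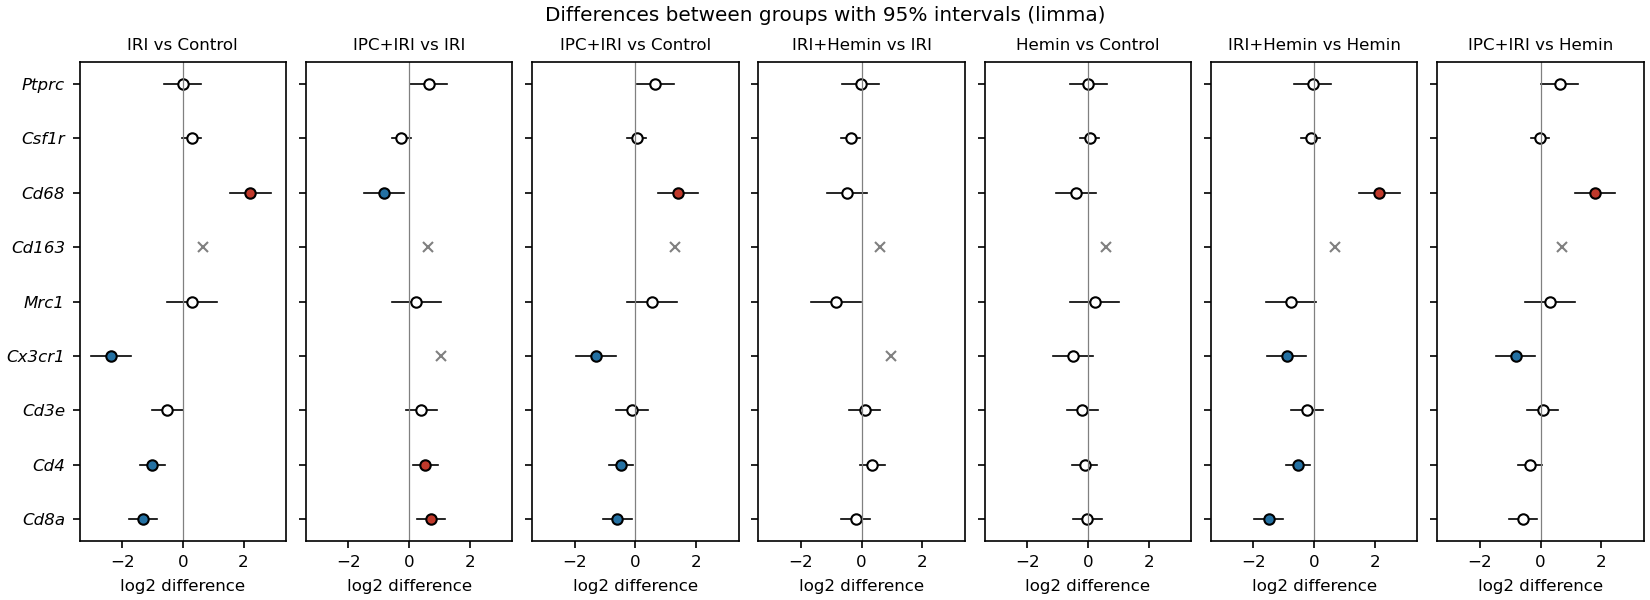
Log2 difference of each member in each comparison with its 95% interval from limma. Red points were called higher and blue ones lower, white ones were tested and not called, and grey crosses were not tested. Cd68 was higher in every comparison of an operated with an unoperated group, and Cd4, Cd8a and Cx3cr1 lay below 0 in each of these.

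IPC+IRI versus IRI, which asks whether preconditioning altered the injured kidney, had 2 members called higher and 1 lower of 7 tested, against 26.3% and 17.9% of all genes. In IPC+IRI versus Control the counts were 1 higher and 3 lower of 8, against 23.3% and 32.7%. These comparisons share arrays and are not independent. IRI+Hemin versus IRI had no member called of 7 tested, although 26.3% of genes were called higher and 18.1% lower. At an unadjusted p of limma below 0.05 there were 2, Csf1r and Mrc1, and neither SAM nor the methods' t-test called any. All shares of genes called in this paragraph are at adjusted p, and none is given for the looser threshold. Hemin versus Control had no member called by limma of 8 tested and none at an unadjusted p below 0.05, by SAM or by the methods' t-test, against 18.5% of genes called higher and 17.6% lower. In IRI+Hemin versus Hemin, 1 member was higher and 3 were lower, against 16.5% and 27.9%, and in IPC+IRI versus Hemin 1 was higher and 1 lower, against 13.2% and 22.8%. The interaction had no call among 8 members, against 5.83% of all genes called higher and 1.96% called lower. At an unadjusted p of limma below 0.05 it had 1 member, Cx3cr1, whose IRI arrays were all below background. In an exact permutation test of 4 arrays against 4 the smallest two-sided p is 0.0286, which Cd68, Cx3cr1, Cd3e, Cd4 and Cd8a all reached in IRI versus Control. Over all genes, 14.8% lay wholly higher in that comparison and 31.3% wholly lower.

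The ligands and partners of the members gave 3 higher and 2 lower of 7 tested in IRI versus Control. Csf1 and Il34, which encode both ligands of the Csf1r receptor, were higher by 2.86 (adjusted p = 1.49e-08) and 2.83 (adjusted p = 5.48e-08). Cx3cl1, encoding fractalkine, was higher by 0.58 (adjusted p = 0.00222) while the level of its receptor was lower. Tnfsf12, encoding the CD163-binding cytokine TWEAK, was called lower (adjusted p = 4.18e-07), with no IRI array above background. Il16, a CD4-binding cytokine, was lower (-1.06, adjusted p = 0.00270). Hp, encoding haptoglobin, differed by 2.67 (adjusted p = 0.265) and B2m, encoding the light chain of the MHC class I molecules that CD8 binds, by -0.03 (adjusted p = 0.884), and neither was called.

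Both pretreatments were followed by lower Csf1 than IRI alone, with -1.15 in IPC+IRI (adjusted p = 0.000346) and -1.29 in IRI+Hemin (adjusted p = 0.000132). Cx3cl1 was higher than in IRI by 0.59 in IPC+IRI (adjusted p = 0.00279) and by 0.57 in IRI+Hemin (adjusted p = 0.00336). Il34 was lower in IPC+IRI than in IRI (-0.64, adjusted p = 0.0333). Thus 1 ligand was higher and 2 were lower of 6 tested in IPC+IRI versus IRI, and 1 was higher and 1 lower of 6 in IRI+Hemin versus IRI. In Hemin, Cx3cl1 was higher than in Control by 0.52 (adjusted p = 0.00864), the only one of 7 called. Cx3cr1 was not called in that comparison, at -0.48 (adjusted p = 0.234).

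Other marker lists are set beside the shares called over all genes, 17.1% higher and 33.9% lower in IRI versus Control, 26.3% and 17.9% in IPC+IRI versus IRI, and 26.3% and 18.1% in IRI+Hemin versus IRI. A gene could enter a comparison through the group in which it was high, so the counts depend in part on that filter. Summed levels add linear readings, so the brightest genes of a list weigh most in them. Of 17 further macrophage and monocyte genes tested in IRI versus Control, 2 were higher and 1 was lower. Fcgr3, an Fc receptor gene, was higher by 0.58 (adjusted p = 0.0307), whereas Aif1, which encodes the macrophage protein IBA1, was lower (-1.57, adjusted p = 0.00470). The list's median was 0.01, and its summed level ran from 12.1 to 15.99 in Control and 12.8 to 17.9 in IRI. In IPC+IRI versus IRI, 9 of 18 were higher and 1 was lower, with a median of 1.02 against 0.09 for all genes. Aif1 was higher by 2.42 (adjusted p = 0.000233) and the lysozyme gene Lyz2 by 2.18 (adjusted p = 0.000218), while Mertk, a receptor for apoptotic cells, was lower (-0.41, adjusted p = 0.0177). In IPC+IRI the summed level ran from 13.7 to 54.1. In IRI+Hemin versus IRI only 1 of 18 was higher and 1 lower, the latter Fcgr1, which encodes CD64 (-1.61, adjusted p = 0.00979).

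Of 13 neutrophil markers listed, 12 were on the array and 4 were tested in IRI versus Control, of which 3 were higher and 1 lower. Most were above background on few unoperated arrays, with 2 to 3 of the 12 detected on a Control array and 4 to 7 on an IRI array. S100a9, a calcium-binding protein abundant in neutrophils, was above background on all arrays of these groups and was higher by 3.68 in IRI than in Control (adjusted p = 1.86e-05). It was higher by 4.95 in IPC+IRI than in Control (adjusted p = 9.14e-07) and by 2.83 in IRI+Hemin than in Hemin (adjusted p = 0.000374). The summed level of the list ran from 0.452 to 0.765 in Control and 0.668 to 1.78 in Hemin. It ran from 2.74 to 8.77 in IRI, 2.37 to 10.2 in IRI+Hemin and 6.63 to 20.4 in IPC+IRI, without overlap between operated and unoperated groups. Neutrophils also contain CD68, and their part in the Cd68 difference was not tested.

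**Figure D5:**
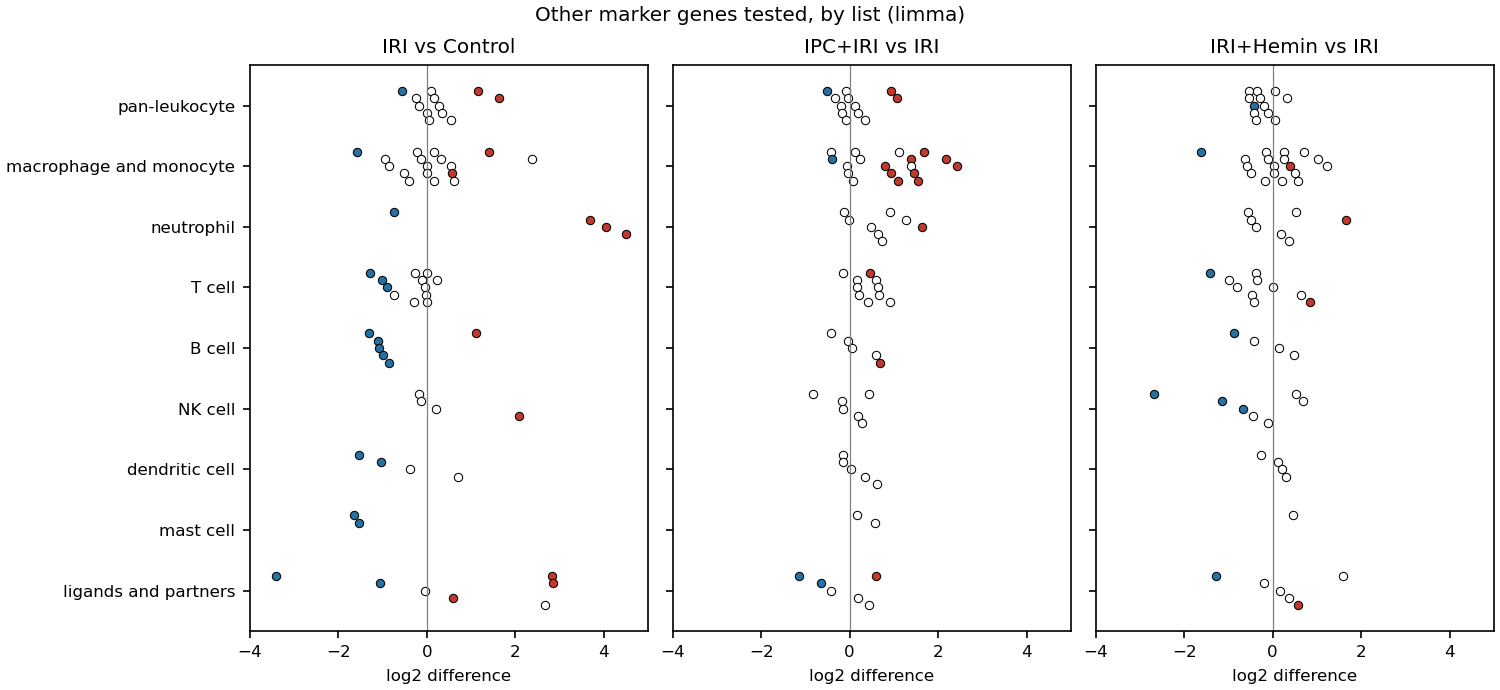
Log2 difference from limma of each further marker gene tested, by list, in IRI versus Control, IPC+IRI versus IRI and IRI+Hemin versus IRI. Red points were called higher and blue ones lower, and white ones were tested and not called. In IRI versus Control, 3 neutrophil genes were called higher and 1 lower, and no T cell gene was called higher.

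Further T cell markers were mostly not called. Of 12 T cell genes tested in IRI versus Control none was higher and 3 were lower, Cd5 among them (-1.29, adjusted p = 0.000343). The share called lower was below that of all genes, and the list's median difference, -0.18, was close to the -0.17 of all genes. The summed level was 2.79 to 3.28 in Control and 2.32 to 2.55 in IRI. B cell genes had 1 higher and 5 lower of 6 tested, with 6 to 7 of the 9 listed above background on Control arrays and 3 to 4 on IRI arrays. Their summed level went the other way, from 5.63 to 9.79 in Control and from 11.6 to 20.4 in IRI. Blnk, an adaptor of B cell receptor signalling, was the higher one (1.12, adjusted p = 0.000822). Its mean log2 level was 2.75 in Control and 3.87 in IRI, so the linear sum of the list mostly followed Blnk. In IPC+IRI versus IRI 1 of 10 T cell genes and 1 of 5 B cell genes were higher and none was lower. In IRI+Hemin versus IRI 1 of 10 T cell genes was higher and 1 was lower. NK cell genes had 1 higher and none lower of 4 in IRI versus Control, and dendritic cell genes none higher and 2 lower of 4, one of them the transcription factor gene Zbtb46 (-1.02, adjusted p = 5.23e-05). Among other pan-leukocyte genes, 2 of 12 were higher after IRI, Cd53 (1.63, adjusted p = 0.000401) and Vav1 (1.15, adjusted p = 0.0153), and 1 was lower, the phosphatase gene Ptpn6 (-0.56, adjusted p = 0.00127), while 9 were not called, as was Ptprc. Ptpn6 is also transcribed outside leukocytes.

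Erythroid and platelet genes had 2 higher and 1 lower of 8 in IRI versus Control. The higher ones included the platelet chemokine gene Pf4 (1.44, adjusted p = 0.000579), and the lower one was Slc4a1 (-0.85, adjusted p = 0.0409), which the kidney also transcribes. In IPC+IRI versus IRI 2 of 8 tested were higher and 3 were lower, with a list median of 0.08 against 0.09 for all genes. The lower ones included the hemoglobin genes Hba-a1 (-1.71, adjusted p = 0.0151) and Hbb-b1 (-1.61, adjusted p = 0.0137), a measure of red cell RNA in the tissue. The part of retained blood in the leukocyte markers was not tested.

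For the 4 members above background on every array, the genes with the most similar course over the 20 arrays were sought among 14526 genes. Likeness was the root mean square difference after each gene was centred on its mean. For Ptprc these were Ccdc88b at 0.19, C1qc, a complement gene of macrophages, at 0.21 and Casp1, the inflammasome protease gene, at 0.21. Cd68 was followed most closely by Nek6 at 0.30, the transcript AK136384 at 0.33 and the plasminogen activator gene Plat at 0.34. For Csf1r they were Rnf40 and Vps25 at 0.13 and Atp6ap1 at 0.15, and for Cd3e the unnamed NAP046039-1 at 0.22, Aff3 at 0.23 and the probe A_52_P549754 at 0.26. The SD over arrays of the members themselves was 0.47 for Ptprc, 1.13 for Cd68, 0.22 for Csf1r and 0.38 for Cd3e, so the likeness of a gene that hardly varies is small in value by construction.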

How the data were processed

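The 20 deposited scanner files hold intensities of single spots, which the authors extracted with Agilent Feature Extraction 9.5.3.1 from 1-colour arrays designed on mm9. Its processed signal is background-subtracted and detrended within an array. The deposited table of log2 values by the authors held the log2 of that signal for single-spot probes (33598 probes, all values within 0.001) with 18.1% of values blank, and was used as an alternative. Group and replicate came from the sample titles.

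From 43379 non-control spots, those marked as outliers were removed. Spots were averaged per probe, divided by the array's 75th percentile and averaged over the probes of a gene name before taking log2. A gene was tested with at most 1 missing value and at least 3 of 4 arrays of either group above background. limma 3.58.1 in R 4.3.3 was fitted on all 20 arrays with 5 group means, and Benjamini-Hochberg adjustment ran over all genes tested (17663 to 19058 by comparison). The count of arrays, 4 in each group, limits the precision. The fits were tested on simulated data.

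The members and the marker lists were chosen with earlier results of these data known. All members and ligands are named. In other lists up to 2 called genes with the largest rise and fall are named, if above background on all 8 arrays compared and without overlap. Some genes that met this rule are not reported here.

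Alternatives covered background correction, scaling, probe choice, filters, the fold, SAM, the methods' t-test, the arrays fitted, a replicate block and leaving out each array. No slide block could be fitted, since each slide held 1 group.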

Additional observations from a re-analysis of the deposited data

Results flagged for a closer look

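In 4 of 45 sets of 4 arrays (9 members in 5 groups), 1 array stood apart from the other 3 by Dixon's test, which by chance happens in about 1 set in 20. Csf1r was 0.57 on IRI replicate 4, above the other IRI arrays. Cx3cr1 was -4.15 on IRI+Hemin replicate 4, above the others, which lay at -5.22 or lower. Cd4 was -5.22 on IRI replicate 4, below 3 arrays that lay within a narrow range. Cd8a was -3.91 on Hemin replicate 4, below the others of its group.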

How the results depend on the processing

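Without any one array, IRI versus Control always had 4 members called, IPC+IRI versus IRI 1 to 4 and IPC+IRI versus Control 2 to 7. The count was 1 in IPC+IRI versus IRI without IRI replicate 3, IRI replicate 4 or IPC+IRI replicate 3, and 7 in IPC+IRI versus Control without IPC+IRI replicate 1, with Ptprc, Mrc1 and Cd163, the last below background on all Control arrays, added as higher. IRI+Hemin versus IRI had 0 to 1, Hemin versus Control 0, IRI+Hemin versus Hemin 2 to 4, IPC+IRI versus Hemin 1 to 4 and the interaction 0 to 1 (Cx3cr1, below background on all IRI arrays). Normexp left 1 call, Cd68, in IRI versus Control and in each of the 4 other comparisons with calls, and gave 1 (Mrc1) in IRI+Hemin versus IRI. Under it Cd4 and Cd8a turned to 0.085 and 0.022 in IRI versus Control and to -0.40 and -0.36 in IPC+IRI versus IRI.

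The counts, against 3 in IPC+IRI versus IRI, were 0 with the deposited log2 matrix, the fold of 2 or SAM, 1 with quantile normalization or the strict filter (Cd68), and 1 with the methods' t-test or only the arrays compared (Cd3e, with Cd68, Cd4 and Cd8a all lost). In IPC+IRI versus Control (4) they were 0 with SAM and 2 with the mean of log2 over probes (Cd4 then 0.011), the fold of 2, the methods' t-test or only the arrays compared. In IRI+Hemin versus Hemin (4) there were 2 with quantile normalization, the matrix, the strict filter, the fold of 2 or SAM. In IPC+IRI versus Hemin (2) there were 0 with SAM, 1 with quantile normalization, no filter, the fold of 2, the methods' t-test or the replicate block, and 4 with the brightest probe. The strict filter left 1 in IRI versus Control, since Cx3cr1, Cd4 and Cd8a were then not tested. In IRI+Hemin versus IRI (0) there was 1 with no normalization, the brightest probe, the percentile over probes detected on all arrays, no filter or the replicate block. Hemin versus Control (0) had 1 with no normalization or the matrix, and the interaction (0) had 1 with that percentile or the brightest probe. The probe A_52_P239834 alone turned Ptprc to -1.003 in Hemin versus Control. For settings other than the strict filter and the fold, the cause was not tested.

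The replicate numbers gave little sign of pairing: correlations of same-numbered arrays' deviations ran from -0.34 to 0.17, and no comparison had more than 1 of 4 pairs above 0.1. In IRI versus Control the same-numbered array was nevertheless the best match for 3 of 4, at correlations from 0.0048 to 0.17. In each other comparison it was so for at most 1 of 4. With the replicate block, IRI versus Control kept a count of 4. The median over all genes in IRI versus Control moved with the processing, from -0.17 to 0.02 under normexp background correction. Among the scalings it was -0.05 with no normalization, -0.13 with quantile normalization and -0.26 with the percentile over probes detected on all arrays. Probes near background limit Cx3cr1, Cd4, Cd8a and Cd163.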
